A study of Mus musculus with 2 samples.

Results

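The genes described here are 10 transcription factors of fat cell formation, Pparg, Cebpa, Cebpb, Cebpd, Cebpg, Rxra, Ebf1, Ebf2, Gata2 and Gata3. They were taken by symbol from a table of raw read counts that lists 46095 genes, and all 10 were in it. The study compared 1 library of C3H10 cells treated with an antisense oligonucleotide (ASO) against MALAT1 with 1 library treated with the negative control ASO (ASO NC). C3H10 (C3H/10T1/2) is a mouse embryonic mesenchymal line that can be driven into adipocytes, and the labels give its strain as C57BL/6. Both libraries came from cells transfected with 100 nM ASO and then differentiated, with induction medium (isobutylmethylxanthine, dexamethasone, troglitazone and insulin) for 2 days followed by insulin alone, up to day 6. No undifferentiated or untransfected culture was analysed here, and the sources do not say which ASO against MALAT1 was sequenced.

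In the textbook cascade of adipogenesis, C/EBPβ and C/EBPδ are made first, in response to isobutylmethylxanthine and dexamethasone respectively. They switch on PPARγ and C/EBPα, which then sustain each other and activate the genes of the mature adipocyte. PPARγ binds DNA as a heterodimer with RXRα, and troglitazone, present in the induction medium, is a PPARγ agonist. EBF1 and EBF2 are early B cell factors that act upstream of PPARγ or beside it, EBF2 mainly in brown fat precursors. GATA2 and GATA3 hold preadipocytes back, and their mRNAs normally decline as fat cells form.

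The libraries held 58147539 (ASO NC) and 61653549 (ASO MALAT1) counts, and levels are given as CPM, a gene's counts relative to the library total after TMM scaling. The 17356 genes with at least 10 counts over both libraries were tested, the 10 transcription factors among them. A gene was called where it differed at least 2-fold with an adjusted p under 0.05 in a two-sided exact binomial test of the counts. Each condition has 1 library, so differences could not be checked against replicates, the test speaks of these libraries and not of the conditions, and 95% intervals cover counting error only. Malat1, the target of the ASO, had 170402 counts in the ASO NC library and 45396 in the ASO MALAT1 library, or 24.7% of the control level. Rpl23, a ribosomal protein gene and the reference of the qPCR in the study, was at 339 and 344 CPM.

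Of the 10 transcription factors, only Cebpa was called, and it was lower in the ASO MALAT1 library. Over all genes tested, 4.09% were called lower and 2.18% higher. On the 1.5-fold line, without a test, Cebpa and Ebf2 lay below and Gata2 and Gata3 above, where 11.9% of all genes tested lay below and 8.28% above. By the adjusted p alone, 6 of the 10 were lower and 3 higher, against 23.8% and 24.2% of all genes, so at this depth small differences often passed. In all, 7 of the 10 genes had a mean of at least 1000 counts, where fold changes scatter less. Of all 8251 such genes 0.739% were called lower and 0.0121% higher, and 2.84% were 1.5-fold lower and 1.43% were 1.5-fold higher. Cebpa was the only one of the 7 past either line, although with Rpl23 as the scale Pparg, at -0.59 on the log2 scale, also passed the 1.5-fold line. The median log2 fold change (log2 FC, ASO MALAT1 over ASO NC) of the 10 genes was -0.21, beside -0.00 over all genes tested (-0.0031 before rounding).

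**Figure D1:**
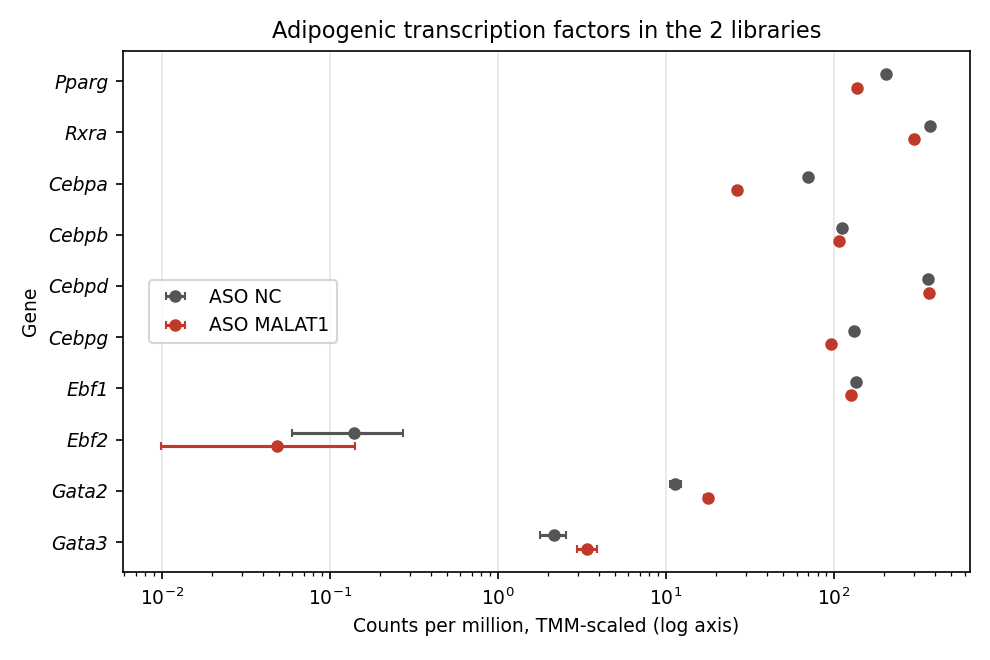
Level of each transcription factor in the ASO NC library (grey) and the ASO MALAT1 library (red), in CPM on a log axis. Points are the 2 libraries and bars are exact 95% Poisson intervals, often narrower than the point. Cebpa moves from 70.5 to 26.6 CPM, Cebpb and Cebpd nearly coincide, Gata2 and Gata3 lie to the right in the ASO MALAT1 library, and Ebf2 is near the limit of detection.

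Pparg, the nuclear receptor that drives adipogenesis, had 11816 counts in the ASO NC library and 8552 counts in the ASO MALAT1 library. That is 205 and 138 CPM. Its log2 FC was -0.57 (95% interval -0.61 to -0.53), a level 1.49-fold lower. Pparg was therefore not called, although its counting interval did not reach 0 (adjusted p = 1.19e-172 in the exact binomial test). If cultures varied with a biological coefficient of variation of 0.1, Pparg had an adjusted p of 0.0737 in edgeR's exact test. With 0.2 and with 0.4 the adjusted p of Pparg was larger still. Of the 8251 genes with a mean of at least 1000 counts, 2.97% had a fold change as low as that of Pparg or lower. In these bulk libraries fewer fat cells and less mRNA per fat cell cannot be told apart, which holds for each gene below.

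In the GENCODE M21 annotation of GRCm38, the build that the submitters' processing notes name, Pparg is a protein-coding gene on the plus strand of chromosome 6, from 115360951 to 115490399. It has 7 annotated transcripts. Pparg-202 and Pparg-204 encode 475 codons and start at the upstream end, at 115360951 and 115362292. Pparg-201 starts inside the gene at 115422066 and encodes 505 codons, the length of PPARγ2, the adipocyte-enriched isoform with a longer N terminus. Counts per gene do not separate these starts. The flanks before both kinds of start are shown because the gene-level value pools them. They are RefSeq promoter sequences of GRCm38.p6, cut to the bases that lie outside annotated exons, in lower case, with matches to TTGCNNAA, a C/EBP motif, in capitals.
Pparg upstream start, chr6:115362099-115362291, plus strand: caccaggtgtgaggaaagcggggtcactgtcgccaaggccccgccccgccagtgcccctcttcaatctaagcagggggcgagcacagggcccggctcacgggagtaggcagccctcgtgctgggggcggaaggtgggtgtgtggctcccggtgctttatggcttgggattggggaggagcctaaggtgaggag
Pparg-201 start, chr6:115421816-115422065, plus strand: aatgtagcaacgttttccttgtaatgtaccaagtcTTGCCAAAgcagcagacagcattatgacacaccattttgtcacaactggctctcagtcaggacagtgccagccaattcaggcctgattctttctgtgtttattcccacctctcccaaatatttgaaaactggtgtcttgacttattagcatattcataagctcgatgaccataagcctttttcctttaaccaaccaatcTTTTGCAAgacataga
The flank of Pparg-201 held 2 matches to the C/EBP motif and the upstream flank held 0. RefSeq promoter windows of 300 bases (250 before and 50 after a start) were found for 8 of the 10 genes, 13 windows in all. The window of Pparg-201 was the only one of the 13 with this motif on either strand, which 10.8% of 32817 mouse promoter windows held. A match describes the letters and is not a measured binding site. The window of Pparg-201 had a GC content of 40.3%, and the 2 upstream Pparg windows had 80.3% and 62.7%, beside a median of 52.7% over all windows.

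Rxra, which encodes the DNA-binding partner of PPARγ, was the gene of the 10 with the most counts in the ASO NC library, at 21626 counts, with 18519 in the ASO MALAT1 library. That is 375 and 298 CPM, a log2 FC of -0.33 (95% interval -0.36 to -0.30). Rxra thus stood at 79.5% of its control level, against 67.2% for Pparg. The ratio of Rxra counts to Pparg counts went from 1.83 to 2.17. This ratio was 1.18-fold higher (exact 95% interval 1.14 to 1.22), and it does not depend on the scaling of the libraries. Rxra lies on the plus strand of chromosome 2, from 27676440 to 27762957, and has 10 exons in its longest transcript. The flank of its internal start, Rxra-202, is shown because it held 2 of the AGGTCA motifs that nuclear receptors bind as pairs, in capitals on either strand.
Rxra-202 start, chr2:27709042-27709291, plus strand: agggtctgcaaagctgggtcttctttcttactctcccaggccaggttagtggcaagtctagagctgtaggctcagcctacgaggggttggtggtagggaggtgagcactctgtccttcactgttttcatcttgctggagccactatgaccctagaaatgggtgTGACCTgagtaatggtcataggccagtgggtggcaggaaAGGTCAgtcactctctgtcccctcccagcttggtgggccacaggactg
AGGTCA was found in 3 of the 13 windows, the others being both upstream windows of Pparg, and in 16.3% of all promoter windows. Pairs of AGGTCA separated by 1 base, the spacing bound by PPARγ with RXRα, were found in 0 of the 13 windows and in 0.0396% of all windows.

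Cebpa encodes C/EBPα, which maintains PPARγ in the mature adipocyte and is needed for insulin-responsive glucose uptake. It had 4071 counts in the ASO NC library and 1652 counts in the ASO MALAT1 library, or 70.5 and 26.6 CPM. Its log2 FC was -1.41 (95% interval -1.49 to -1.32, adjusted p = 1.35e-269 in the exact binomial test), which left 37.7% of the control level. Among the 8251 genes with a mean of at least 1000 counts, 14 had a fold change as low or lower, Cebpa included. The count of Cebpa per count of Pparg went from 0.345 to 0.193, 1.78-fold lower (exact 95% interval 1.67 to 1.90). So the mRNA of C/EBPα was lower by more than that of PPARγ in this pair of libraries, whatever the scaling. If cultures varied with a biological coefficient of variation of 0.1, Cebpa had an adjusted p of 9.83e-09 in edgeR's exact test, and with 0.2 it had 0.0883 and was no longer called.

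Cebpa has no introns and lies on the plus strand of chromosome 7, from 35119293 to 35121928. The bases before its start are shown as the flank of the called gene, with the TATAAA box in capitals.
Cebpa start, chr7:35119043-35119292, plus strand: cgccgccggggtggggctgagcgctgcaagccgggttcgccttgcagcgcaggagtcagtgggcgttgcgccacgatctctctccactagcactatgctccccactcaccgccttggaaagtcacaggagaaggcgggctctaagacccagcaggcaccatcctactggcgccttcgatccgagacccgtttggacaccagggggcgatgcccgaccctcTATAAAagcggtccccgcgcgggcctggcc
TATAAA was found in 3 of the 13 windows, one each for Cebpa, Cebpb and Pparg, and in 13.6% of all windows on either strand. The Cebpa window had a GC content of 67.3% and held no match to TTGCNNAA.

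Cebpb, the early factor induced by isobutylmethylxanthine, had 6460 counts in the ASO NC library and 6653 counts in the ASO MALAT1 library. These were 112 and 107 CPM, with a log2 FC of -0.06 (95% interval -0.11 to -0.01). Cebpd, the early factor induced by dexamethasone, had 20845 and 22982 counts, or 361 and 370 CPM. Its log2 FC was 0.03 (95% interval 0.01 to 0.06). Both early C/EBPs thus kept within 1.1-fold of the control level at day 6, and their direction was the same under every scaling tried, Cebpd between 0.01 and 0.06. The ratio of Cebpb to Cebpd counts was 0.310 and 0.289, 1.07-fold lower (exact 95% interval 1.03 to 1.11).

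Both early genes lack introns and overlap a gene on the opposite strand. Cebpb (chromosome 2, 167688915 to 167690418, plus strand) shares 20.7% of its exon bases with Tmem189, and Cebpd (chromosome 16, 15887286 to 15891031, plus strand) shares 15% of its exon bases with Spidr. Tmem189 had 6971 and 6616 counts and Spidr had 12687 and 13920 counts. The library kit keeps strand, but whether the counting used it is not given in the sources used here, so some reads of these pairs may be assigned to either gene. For no other gene of the 10 did the shared part exceed 6.12%.

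Cebpg encodes C/EBPγ, a short family member without a strong activation domain that pairs with other C/EBPs and with ATF4. It had 7551 counts in the ASO NC library and 5983 in the ASO MALAT1 library, or 131 and 96.3 CPM. The log2 FC of Cebpg was -0.44 (95% interval -0.49 to -0.39), a level of 73.6%. Cebpg lies on the minus strand of chromosome 7, from 35046422 to 35056573, next to Cebpa with a gap of 62720 bases. Both neighbours were lower, but Cebpa by 1.95-fold more (exact 95% interval 1.83 to 2.09). On the other side of Cebpg, Pepd, which encodes a dipeptidase, had 1378 and 1238 counts and a log2 FC of -0.26. Slc7a10, the amino acid transporter gene on the other side of Cebpa, had 0 counts in both libraries.

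**Figure D2:**
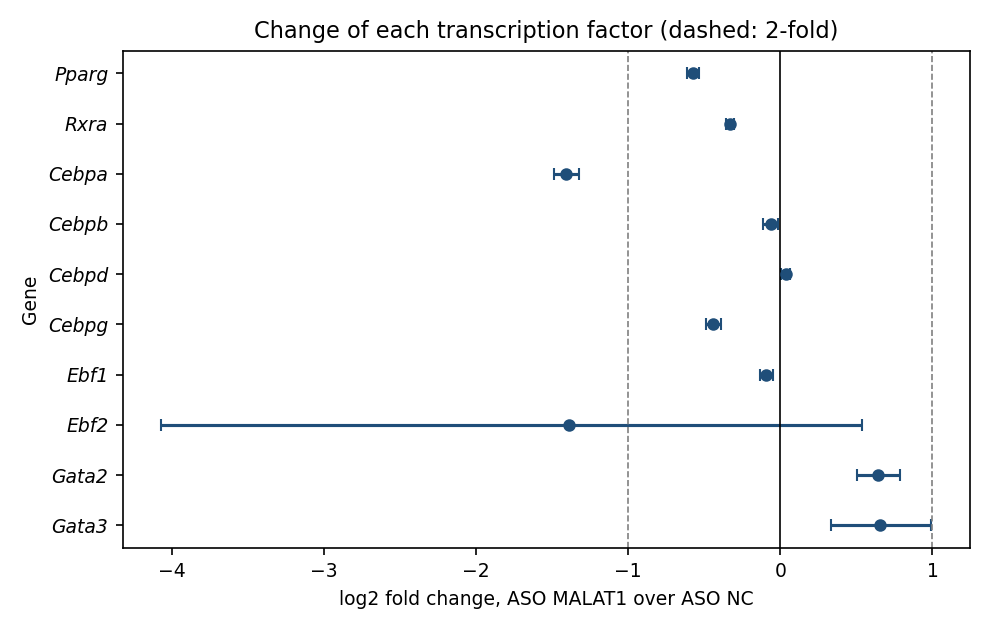
Log2 fold change of each transcription factor, ASO MALAT1 over ASO NC, with 95% Clopper-Pearson intervals that cover counting error only. Dashed lines mark 2-fold. Cebpa at -1.41 is the only gene whose interval lies wholly beyond a line, Gata2 and Gata3 are near 0.65 on the higher side, and the interval of Ebf2 runs from -4.07 to 0.54.

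The C/EBP mRNAs were also compared as shares of their own sum, which needs no scaling between libraries. Per kilobase of the longest transcript, Cebpa made up 11.9% of the 4 C/EBP mRNAs in the ASO NC library and 5.05% in the ASO MALAT1 library. Cebpd went from 42.8% to 49.2% and Cebpb from 33.0% to 35.5%, while Cebpg went from 12.3% to 10.2%. As plain counts, Cebpa was 10.5% of 38927 counts (exact 95% interval 10.2 to 10.8) in the ASO NC library and 4.43% of 37270 counts (4.23 to 4.65) in the ASO MALAT1 library. The early factors Cebpb and Cebpd made up most of the C/EBP mRNA in both libraries, and Cebpa lost the most. Summed over the 4 genes, the level was 675 and 600 CPM.

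**Figure D3:**
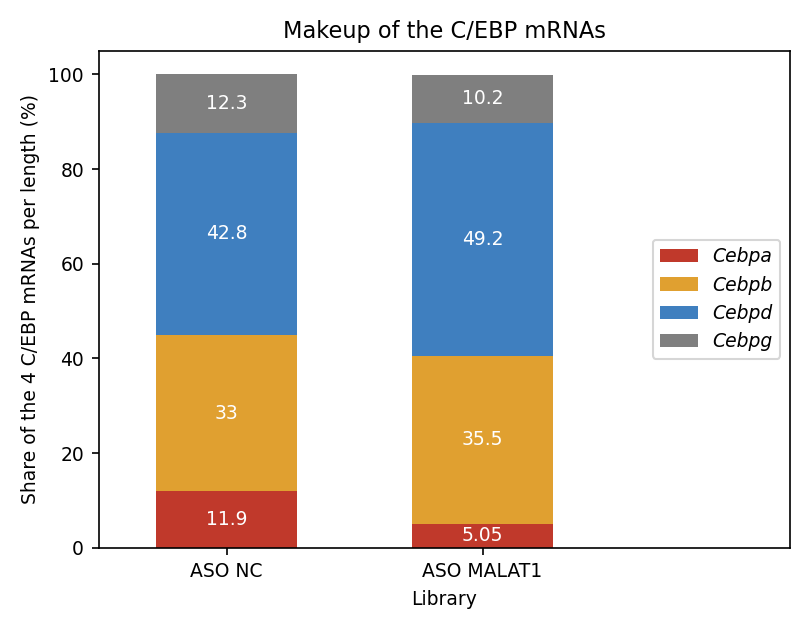
Share of each C/EBP mRNA in the sum of the 4, in percent of counts per kilobase of longest transcript, for each library. The Cebpa part shrinks from 11.9% to 5.05%, and the Cebpd part grows from 42.8% to 49.2%.

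Ebf1 had 7801 counts in the ASO NC library and 7884 in the ASO MALAT1 library, or 135 and 127 CPM. The log2 FC of Ebf1 was -0.09 (95% interval -0.14 to -0.05), 93.9% of the control level. Ebf2 had only 8 and 3 counts. The log2 FC of Ebf2, -1.39, had a 95% interval of -4.07 to 0.54, so a difference was not detectable at this depth (adjusted p = 0.28 in the exact binomial test). Of the EBF genes of the list, Ebf1 thus supplied nearly all the mRNA in both libraries, and Ebf2 was near the floor of 3 counts. The genes on both sides of Ebf2 on chromosome 14 were well covered, Ppp2r2a with 5790 and 6019 counts and Cdca2 with 1370 and 1998 counts. Ebf3, a relative outside the list, had 2710 and 3385 counts, a log2 FC of 0.21 (95% interval 0.14 to 0.29).

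Gata2 had 659 counts in the ASO NC library and 1108 counts in the ASO MALAT1 library, or 11.4 and 17.8 CPM. This gave Gata2 a log2 FC of 0.64 (95% interval 0.50 to 0.78), 1.56-fold higher. Gata3 had 124 and 211 counts, or 2.15 and 3.40 CPM, with a log2 FC of 0.66 (95% interval 0.33 to 0.99), 1.58-fold higher. Both GATA factors of the preadipocyte were thus higher in the ASO MALAT1 library by a like amount, and neither was called, since both were under 2-fold. If cultures varied with a biological coefficient of variation of 0.2, neither had an adjusted p under 0.05 in edgeR's exact test. The ratio of Gata2 to Gata3 counts was 5.31 and 5.25, and the ratio of these ratios, 0.988, had an exact 95% interval from 0.769 to 1.27. Among all genes tested, 7.16% had a fold change as high as that of Gata2 or higher, and 6.97% as high as that of Gata3. Gata2 per count of Pparg was 2.32-fold higher (exact 95% interval 2.10 to 2.57).

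Gata2 lies on the plus strand of chromosome 6, from 88193891 to 88207032, and Gata3 on the minus strand of chromosome 2, from 9857078 to 9890034. Rpn1, the gene before Gata2, had 13901 and 17225 counts, a log2 FC of 0.20, and Celf2, the gene before Gata3, had 8742 and 8782 counts and -0.10. Of the other GATA genes, Gata4 had 719 and 891 counts, a log2 FC of 0.20 (95% interval 0.06 to 0.35). Gata6 had 669 and 695 counts, with -0.05 (95% interval -0.21 to 0.10). Gata1 and Gata5 had 0 counts in both libraries, which allows up to 0.052 CPM (ASO NC) and 0.0483 CPM (ASO MALAT1) in a library.

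**Figure D4:**
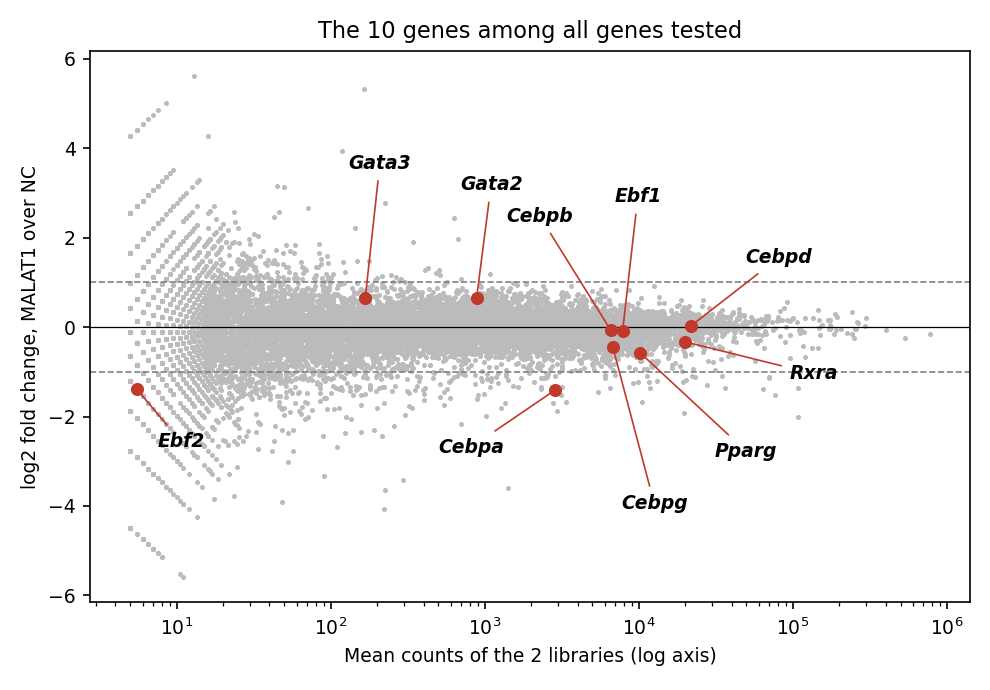
Log2 fold change against the mean count of the 2 libraries (log axis) for the 17356 genes tested (grey) with the 10 transcription factors in red. Dashed lines mark 2-fold. Cebpa lies below the main body of genes with similar counts, Gata2 and Gata3 lie near the upper edge of theirs, and Ebf2 sits where the scatter is widest.

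Levels were compared between genes as CPM per kilobase of the longest annotated transcript. In the ASO NC library the order was Pparg and Cebpd (both 96.4), Rxra (76.4), Cebpb (74.4), Cebpg (27.8), Cebpa (26.9), Ebf1 (22.6), Gata2 (3.20), Gata3 (0.668) and Ebf2 (0.0266). The counting intervals of Pparg and Cebpd overlapped, as did those of Rxra and Cebpb and those of Cebpg and Cebpa. In the ASO MALAT1 library Cebpd came first with 98.7, followed by Cebpb (71.2), Pparg (64.8), Rxra (60.8), Ebf1 (21.2), Cebpg (20.5) and Cebpa (10.1). The intervals of Ebf1 and Cebpg overlapped there. Gata2 followed with 4.99, then Gata3 with 1.06 and Ebf2 with 0.00928. By this length Pparg went from level with Cebpd to below Cebpb, and Cebpa from beside Cebpg to less than the Cebpg level. The order depends on the length used. Over all exons merged, Pparg was at 69.3 and 46.6, below Cebpd and Cebpb in both libraries.

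Genes beside the transcription factors were read in the same way. Timp4, a metalloproteinase inhibitor gene that lies 108746 bases before Pparg, had 2748 and 1594 counts, a log2 FC of -0.89. Beside Rxra, Wdr5 had a log2 FC of 0.04 and Col5a1 of 0.07, and beside Ebf1, Rnf145 had 0.10 and Clint1 0.03. None of these neighbours was called.

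Close relatives of the 10 genes mostly had few counts in these libraries. Of 13 listed, 9 were tested, and 1 was called lower and 0 higher, beside 4.09% and 2.18% of all genes tested. The called gene was Ppard, the PPARδ gene, with 118 and 52 counts and a log2 FC of -1.28 (95% interval -1.79 to -0.81). Rxrb, the gene of another RXR, had 8 and 2 counts, a log2 FC of -1.87 with an interval from -5.38 to 0.22. Both lie in stretches of the table with low counts. Of the 20 nearest protein-coding genes, 1 around Ppard and 1 around Rxrb had at least 1000 counts over both libraries. Around each of the 10 transcription factors, from 7 to 15 of the 17 to 20 genes had at least 1000. Under 10 counts were 11 genes around Rxrb and 7 around Ppard, and 7 also around Pparg, Ebf1 and Ebf2. The median summed count was 91 around Ppard and 7 around Rxrb, and the lowest among the 10 was 151, around Rxra. The part of these stretches in the low counts of Ppard and Rxrb, or in the Ppard difference, was not tested. Ddit3, whose product CHOP dimerises with C/EBPs and blocks their DNA binding, had 3580 and 2904 counts, a log2 FC of -0.41. Cebpz had 2488 and 2708 counts, with 0.02, and Cebpe had 1 count in each library.

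Coregulators of PPARγ and the C/EBPs were centred on 0. All 27 listed were tested, with a median log2 FC of -0.00 (-0.0043 before rounding). Of the 27, 1 (3.7%) was called lower and 0 higher, beside 4.09% and 2.18% of all genes tested. The called gene was Trib3, a pseudokinase gene of the ATF4 response whose product restrains insulin signalling and adipogenesis, with 1671 and 758 counts and a log2 FC of -1.25 (95% interval -1.37 to -1.12). The corepressor gene Ncor1 had 17204 and 18171 counts, with -0.03. Tbl1x, another corepressor subunit gene, had -0.02, and Kmt2d, the enhancer methyltransferase gene, had -0.07. On the 1.5-fold line, without a test, 2 of the 27 lay below, Trib3 and Ppargc1b, and 0 above. Ppargc1b had 2770 and 1685 counts, a log2 FC of -0.82 (95% interval -0.91 to -0.74). Early inducers of adipogenesis had a median of -0.04 over 25 genes tested, with 0 called in either direction by the exact binomial test, where 12 were lower and 5 higher by adjusted p alone, beside 23.8% and 24.2% of all genes tested. Stat3 had 23417 and 22185 counts, a log2 FC of -0.18. Nfic had 14812 and 17006 counts, with 0.09, and Atf4 had 15744 and 12772 counts, with -0.41.

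Genes that restrain adipogenesis were counted in the same way. Of 28 listed, 24 were tested, with a median log2 FC of 0.16. Values were above 0 for 19 and below 0 for 5, and 0 were called in either direction. Over all 17356 genes tested, 8600 were above 0. By adjusted p alone 14 were higher and 4 lower, beside 24.2% and 23.8% of all genes tested. Ctnnb1, which encodes β-catenin, had 39164 and 45599 counts, a log2 FC of 0.11 (95% interval 0.09 to 0.13). Sox9, a mesenchymal progenitor and cartilage factor, had 6570 and 10050 counts, with 0.51 (95% interval 0.46 to 0.55), and Klf3 had 7216 and 8584 counts, with 0.14. These values were all smaller than those of Gata2 and Gata3.

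**Figure D5:**
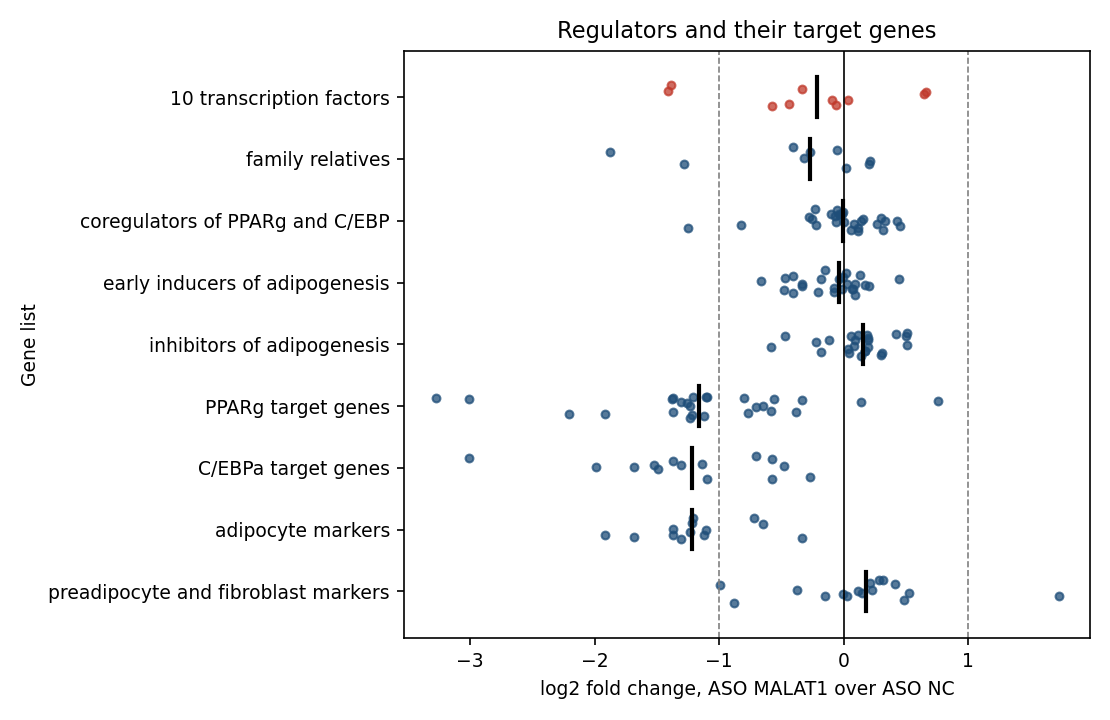
Log2 fold change of every tested gene in the 10 transcription factors (red) and in related lists (blue), ASO MALAT1 over ASO NC. Black bars are medians and dashed lines mark 2-fold. The target lists have medians of -1.16 and -1.22, while the medians of the regulators lie between -0.27 and 0.16.

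Listed target genes of PPARγ and C/EBPα were mostly lower, beside 4.09% of all genes tested that were called lower. Of 29 genes listed as PPARγ targets, 26 were tested, with a median log2 FC of -1.16, and 16 were called lower and 0 higher. Fabp4, the fatty acid binding protein gene, had 151625 and 63240 counts, a log2 FC of -1.37 (95% interval -1.38 to -1.35). Acsl1, which encodes an acyl-CoA synthetase, had 90171 and 37346 counts, with -1.38, and Gpd1, which supplies glycerol 3-phosphate, had -1.91. Aqp7, the glycerol channel gene, had 416 and 97 counts, with -2.20. Pck1 went from 93 to 12 counts and Cidea from 40 to 4, with log2 FCs of -3.01 and -3.28. Plin4, with 46134 and 39382 counts, was not called, at -0.33. Of the 26 tested, 24 were below 0 and 2 above. These 2 were Pdk4, with 16596 and 19662 counts and 0.14, and Olr1, with 8 and 15 counts and 0.76.

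Of 15 genes listed as C/EBPα targets, 14 were tested, with a median of -1.22, 9 called lower and 0 higher. The list holds Pparg itself and shares 5 genes with the PPARγ list, so these are not separate sets. Retn, the resistin gene, had 1592 and 431 counts, a log2 FC of -1.99, and Cfd, the adipsin gene, had 15711 and 5257 counts, with -1.69. The lipogenic genes Scd1 and Fasn had log2 FCs of -1.53 and -1.13. Among the 123 genes of all lists with a mean of at least 500 counts, those with a fold change nearest to that of Cebpa were Acsl1, Lpl and Fabp4, from -1.38 to -1.37. Those nearest to Pparg were Acaca (-0.58), Retsat (-0.56) and Klf15 (-0.66). With 2 libraries a likeness of this kind is weak, since 169 of all genes tested lay within 0.1 of Cebpa and 802 within 0.1 of Pparg.

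Markers of cell types were read beside these values. Of 14 adipocyte markers, 13 were tested and 10 were called lower, beside 4.09% of all genes tested. Of the 14, 11 are also listed as PPARγ targets and 4 as C/EBPα targets, so this is not a separate set. The summed level of the markers went from 8289 to 3632 CPM. Lep, the leptin gene, had 1 count in the ASO NC library and 0 in the ASO MALAT1 library. Of 18 preadipocyte and fibroblast markers, 16 were tested, with a median log2 FC of 0.18, and their summed level was 20165 and 22184 CPM. One gene (1 of 16), Cd34, was called higher with 19 and 69 counts, and 0 were called lower, beside 2.18% and 4.09% of all genes tested. The proteoglycan genes of fibroblasts had lower values, Lum with 1246 and 674 counts and a log2 FC of -0.99, and Dcn with 2247 and 1315 counts and -0.88. Dlk1, the classical preadipocyte marker, had 0 counts in both libraries, Dpp4 had 0 and 1, and Icam1 had 5 and 8. Both libraries thus held mRNA of genes listed as fibroblast markers and of genes listed as adipocyte markers. Whether these came from separate cells was not tested. The part of a cell mixture in the values of Cebpa, Pparg, Gata2 and Gata3 was not tested either.

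Markers of other lineages were read too. Of 14 osteoblast and chondrocyte markers 8 were tested, with a median log2 FC of 0.31 (0.20 under both other count filters) and 0 called. By adjusted p alone 4 were higher and 1 lower, beside 24.2% and 23.8% of all genes tested. The summed level of the listed markers was 1444 and 1931 CPM, of which Spp1 made up 1246 and 1682 CPM. Of the 8, 6 were above 0 and 2 below. These 2 were Phex, with 2180 and 1935 counts and a log2 FC of -0.28, and Comp, with 324 and 327 counts and -0.09. Col2a1, which encodes the collagen of cartilage, had 378 and 692 counts, with 0.77 (95% interval 0.58 to 0.95). Spp1, the osteopontin gene, had 71895 and 104528 counts, with 0.43, and Runx2 had 0.20, while Acan, Matn1 and Sost had 0 counts in both libraries. Of 12 muscle markers 4 were tested, with a median of -0.54 and 0 called, and 7 had 0 counts in both libraries, Myod1 and Myog among them. Des, Myh11 and Tagln were below 0, and Acta2, with far more counts (13163 and 16191), was at 0.19. The summed level of the muscle markers was 238 and 267 CPM. Of 11 macrophage and endothelial markers 6 were tested, with a summed level of 10.3 and 11.9 CPM. Lyz2, 1 of the 6, was called higher with 7 and 25 counts, beside 2.18% of all genes tested. Values were above 0 for 3 and below 0 for 3. Cd68, with 172 and 119 counts, had a log2 FC of -0.64, and Cd14, with 362 and 536 counts, had 0.46. Ptprc, Adgre1 and Tie1 had 0 counts in both libraries.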

How the data were processed

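RNA-seq was made from total RNA after rRNA removal with a strand-keeping kit, in 1 library per condition. The authors deposited raw counts of reads per gene symbol. The submitters' processing notes name HISAT2 and GRCm38, and the counting tool, annotation and treatment of strand, duplicate and multi-mapped reads are not given in the sources used here. Columns were matched to libraries by title.

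Genes with at least 10 counts over both libraries were kept, and library sizes were scaled by TMM (edgeR 4.0.16, R 4.3.3, factors 0.992 and 1.01). The log2 fold change used a prior count of 0.5. With 1 library per group edgeR's quasi-likelihood test and DESeq2 cannot estimate a spread, so a two-sided exact binomial test was used (scipy 1.17.1), with Benjamini-Hochberg adjustment over all genes tested and 95% Clopper-Pearson intervals. The test was checked on simulated Poisson counts, which hold no spread between cultures, so the check does not speak of that spread. Ratios of 2 genes were compared by conditional odds ratios. A count of 0 allows up to 3 counts. Coordinates and lengths came from GENCODE M21, which holds 88.3% of the tested symbols, and promoters from RefSeq (GRCm38.p6).

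The 10 genes and the 11 related lists were chosen with earlier results of these data known, and the lists were written by hand. Named genes are the 10, Malat1, Rpl23, neighbours, up to 5 called genes and the 3 with most counts per list, and the 3 nearest in fold change to Pparg and Cebpa. Others, such as Ebf3, Gata4 and genes at 0 counts, were added once their values had been seen, and some genes that the rule admits are left out. The scale was also set by Rpl23, by upper quartiles, by library totals or by size factors of DESeq2 1.42.0. Other filters, other transcript lengths, a larger prior count (2) and edgeR's exact test with assumed coefficients of variation were tried too.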

Additional observations from a re-analysis of the deposited data

How the results depend on the processing

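No paired analysis was possible because each group has 1 library. The 4 other scalings changed neither the direction nor the call of any of the 10 genes or Malat1, and they moved the median of all genes by at most 0.0221 on the log2 scale. With edgeR's exact test the count of genes called lower among the 10 stayed at 1 where the biological coefficient of variation was set to 0.1 and was 0 at 0.2 and 0 at 0.4, the spread between cultures being assumed and not measured. Over all genes, these settings called 466, 95 and 0 genes lower and 202, 22 and 1 higher. With all genes of at least 1 count, the median log2 fold change was -0.11 for the relatives, -1.11 for the PPARγ targets, -1.30 for the C/EBPα targets and 0.21 for the preadipocyte and fibroblast markers. The last was 0.15 with at least 10 counts in each library, a filter that left 0 macrophage and endothelial markers called higher. The median of the osteoblast and chondrocyte markers was 0.20 under either filter. With Rpl23 as the scale, Pparg joined the genes at least 1.5-fold lower, which made 3 of the 10, and 1 preadipocyte and fibroblast marker was called lower. Without length, the Cebpa share was 10.5% and 4.43%. The genes tested differ between the filters, and no other cause was tested. Of 327 alternatives, 304 were rated as unchanged. For single genes this meant the same direction and call, and for counts of genes a difference of at most 1.5-fold. For medians and shares it meant a shift within the counting error, which is wide at low counts. The macrophage and endothelial median, 0.15, was so rated at 0.97 (at least 1 count) and at -0.27 (at least 10 counts in each library). Ebf2 was limited by depth.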
